A study of Canis lupus familiaris with 34 samples.

Results

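The Notch receptors NOTCH1, NOTCH2, NOTCH3 and NOTCH4, the ligands JAG1, JAG2, DLL1 and DLL4, and the target genes HEY1 and HEY2 were examined in mitral valves of Cavalier King Charles Spaniels. The genes were taken by name, by a rule that uses no measured value, although with earlier results of these data known. They are 10 of the 23768 features in the deposited count table. Poly(A) RNA was sequenced from the valves of 34 privately owned dogs of about 10 years. The 10y-noCHF group held 19 dogs (10 females, 9 males) without congestive heart failure (CHF). All but 1 of these dogs had myxomatous mitral valve disease (MMVD) that had not led to CHF, so this is not a group of healthy valves. The 10y-MMVD-CHF group held 15 dogs (6 females, 9 males) with CHF caused by MMVD, a diagnosis that included a response to diuretics. All dogs were sedated with butorphanol and dexmedetomidine and euthanized with pentobarbital, and no dog received an experimental treatment. Each dog gave 1 sample.

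Notch signalling passes between touching cells. A ligand of the Jagged or Delta-like family on one cell binds a Notch receptor on its neighbour, the receptor is cut, and its intracellular part enters the nucleus and turns on genes with the DNA-binding protein RBPJ, among them the HEY repressors. In the heart, the pathway is known for the endothelial-to-mesenchymal transition that seeds the valve cushions, for arterial endothelium, and for the smooth muscle and pericytes around vessels, where NOTCH3 is the typical receptor. Inherited loss of JAG1 or NOTCH2 causes Alagille syndrome, and NOTCH1 mutations are linked to malformed and calcified aortic valves in humans.

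The samples carried valve tissue in every dog. The summed level of 11 valve interstitial markers (VIM, POSTN, DCN and others) ranged from 19418 to 64103 CPM (counts scaled to a common library size), and 8 macrophage markers were also present throughout (457 to 1548 CPM). Endothelial markers were present as well (11 genes, 512 to 1340 CPM, CLDN5 at 0 in 1 dog), and so were mural markers of smooth muscle and pericytes (9 genes, 603 to 1977 CPM). Heart muscle RNA varied far more. The summed level of 17 cardiomyocyte markers ranged from 58.0 to 26639 CPM in the 10y-noCHF group and from 80.6 to 54956 CPM in the 10y-MMVD-CHF group, and MYL2, the ventricular light chain, was at 0 in 2 dogs. In no marker list was a gene called between the groups, against 0.118% of all features tested. The lymphocyte, adipocyte, mesothelial and Schwann cell lists were low. Summed levels ranged from 2.83 to 38.8 CPM for 7 lymphocyte markers and from 1.25 to 146 CPM for 5 adipocyte markers. Of 5 mesothelial markers, 3 had 100 counts or more in sum, and their summed level ranged from 2.30 to 10.8 CPM. For 3 Schwann cell markers the summed level ranged from 6.13 to 22.2 CPM. CAV1047 and CAV614, which are left out together in later fits, were both 10y-MMVD-CHF. In the 10y-noCHF group the summed level of the red blood cell markers reached 522 CPM (median 31.7). CAV1047, a female, had the highest cardiomyocyte marker mean and the lowest total count, and CAV614, a male, had the highest red blood cell marker level (2174 CPM summed, against a 10y-MMVD-CHF median of 32.9). Total counts ranged from 46185256 to 82361245 per dog.

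All genes below were counted on canFam4, and for 9 of them the counted feature is a human XenoRefSeq alignment whose interval spans the locus with its introns. NOTCH1 lies on chromosome 9 (48974179 to 49017802, plus strand), NOTCH2 on chromosome 17 (57448697 to 57609084, minus), NOTCH3 on chromosome 20 (47358046 to 47391826, plus) and NOTCH4 on chromosome 12 (1720499 to 1741862, minus). JAG1 lies on chromosome 24 (12117162 to 12153376, plus), JAG2 on chromosome 8 (72943960 to 72966606, minus), DLL1 on chromosome 12 (72737391 to 72745728, minus) and DLL4 on chromosome 30 (8349162 to 8358610, plus). HEY2 lies on chromosome 1 (65207237 to 65219274, plus). HEY1 was counted on the 5 exon intervals of its canine RefSeq feature on chromosome 29 (27749710 to 27752657, minus). Strand was not used, so a read of an overlapping gene cannot be told from a read of the member. NOTCH3 lies inside the human WIZ feature, and JAG2 lies inside those of AKT1, BTBD6 and PACS2. DLL1 shares 172 bases with FAM120B on the other strand, NOTCH4 shares 104 bases with GPSM3, and the human paralogs NOTCH2NLA, NOTCH2NLB, NOTCH2NLC and NOTCH2NLR are listed inside NOTCH2, each with 3.77% to 3.81% of its counts.

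Per kilobase of counted interval, HEY2 had the highest level of the 10 genes, with a median of 5.96 CPM per kilobase over the 34 dogs. It was followed by NOTCH1 (2.82), NOTCH2 (1.85), JAG1 (1.53), DLL1 (0.908), NOTCH3 (0.888), HEY1 (0.549), DLL4 (0.419), JAG2 (0.321) and NOTCH4 (0.199). HEY2 was above NOTCH1, NOTCH1 above NOTCH2, and JAG1 above DLL1, in 34 of 34 dogs (two-sided sign-flip permutation test of the differences within dogs, adjusted p = 2.25e-05 over 9 neighbouring pairs, from the smallest p that 100000 resamples can give, 1e-05). DLL1 and NOTCH3 did not differ beyond the spread over dogs: DLL1 was higher in 16 of 34 dogs (adjusted p = 0.603). HEY1 was above DLL4 in 21 of 34 dogs, and this pair came nearest to the threshold of 0.1 among those past it (adjusted p = 0.0671). With the human HEY1 feature in place of the canine one, DLL4 was above HEY1 in 23 of 34 dogs. The intervals of 9 genes hold introns, so their levels rank reads per length of locus. HEY1 alone was divided by the length of its exons (1.315 kb), so its place in the order sets unlike measures side by side. None of these values is an mRNA level per transcript.

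The genes differed as much in how evenly they were expressed. JAG1 and NOTCH1 were the most even, with the highest dog 1.88-fold and 2.07-fold above the lowest on the CPM scale. NOTCH2 (2.50-fold), HEY2 (2.72-fold), NOTCH3 (3.40-fold) and DLL1 (4.19-fold) followed. JAG2 (8.56-fold), DLL4 (15.1-fold), HEY1 (25.1-fold) and NOTCH4 (30.3-fold) spread widely. HEY1 rested on few counts, 6 to 161 per dog, and its lowest dog, CAV1519, had 6.

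**Figure D1:**
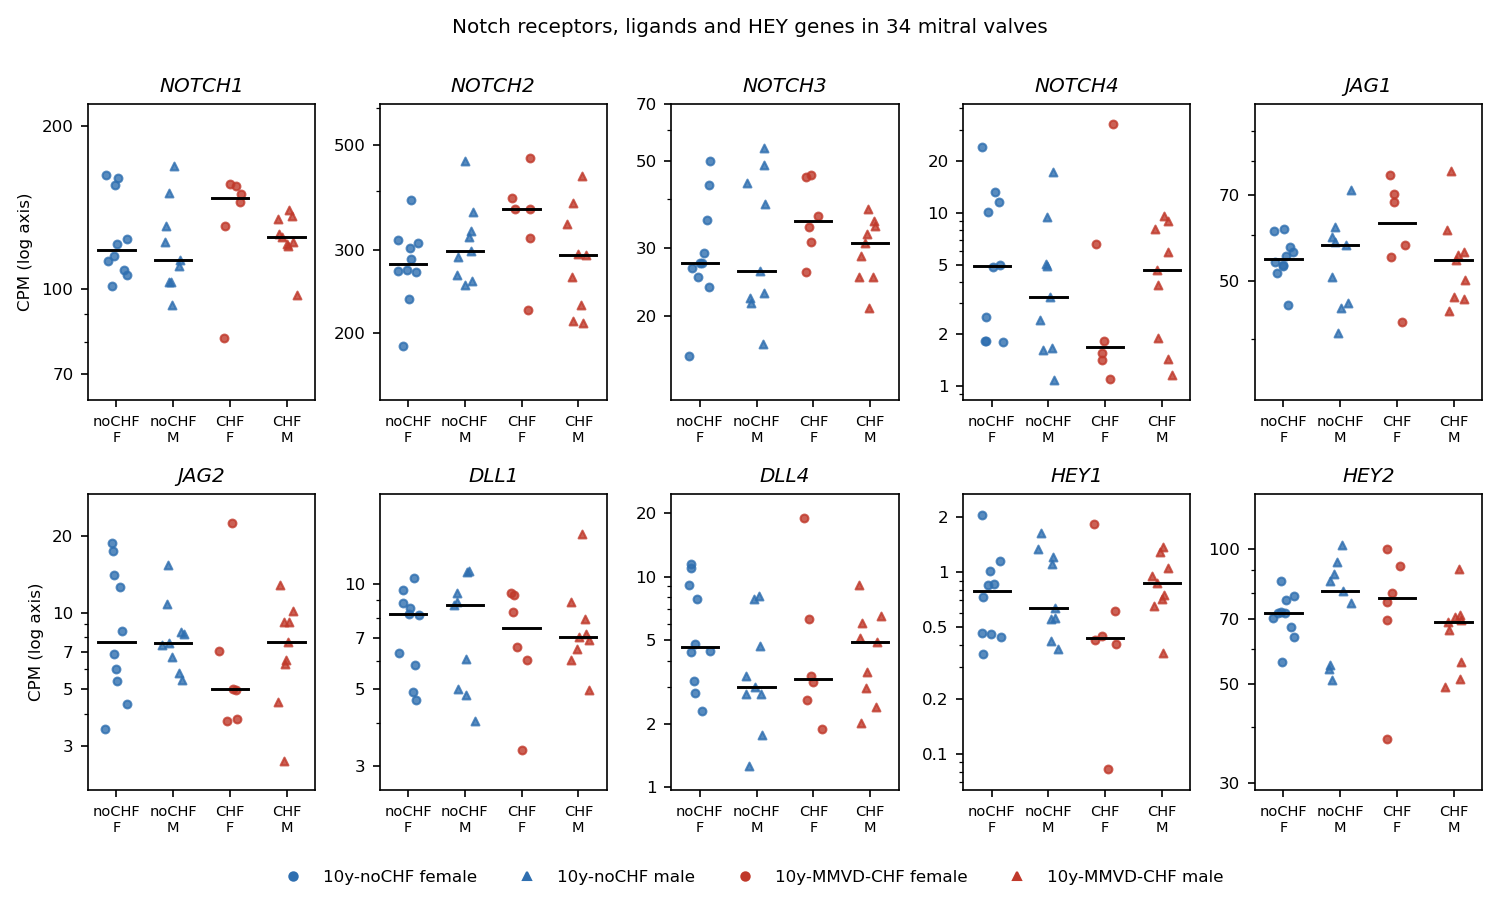
CPM of each gene on a log axis (a separate range per panel), with 1 point per dog, circles for females (F), triangles for males (M), blue for 10y-noCHF (noCHF) and red for 10y-MMVD-CHF (CHF), and black lines at the medians. The groups overlap in all 10 panels, and the widest spread is in NOTCH4, from 1.08 to 32.7 CPM.

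The first comparison asked whether the level of these genes differs between dogs with and without CHF. None of the 10 genes was called (edgeR's quasi-likelihood test with sex as a fixed effect, FDR threshold 0.1), against 0.118% of the 19568 features tested. None had an unadjusted p below 0.05, against 6.31% of all features. DESeq2 and limma voom gave 0 of 10 on both counts as well. Over the 19568 features, DESeq2 called 64 and voom 25, and 1377 and 1975 had an unadjusted p below 0.05. The median log2 fold change of the 10 genes was 0.01, the same to 2 decimals as over all features tested (0.01). The direction was positive for 5 genes and negative for 5. On simulated counts with the same dogs, 79.5% of 200 features drawn from all those tested and changed by 1 on the log2 scale were called. This share is not that of the 10 genes, whose SEs ran from 0.08 (JAG1) to 0.47 (NOTCH4).

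NOTCH1, the receptor on valve and vessel endothelium, had 93.7 to 169 CPM in the 10y-noCHF group (median 115) and 81.4 to 156 CPM in the 10y-MMVD-CHF group (median 131). Of the 15 dogs with CHF, 13 were above the 10y-noCHF median, yet 14 lay inside the 10y-noCHF range. The log2 fold change was 0.07 ± 0.09 (SE, 15 against 19 dogs; 95% interval −0.11 to 0.25).

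NOTCH2, the receptor with the most counts, had 188 to 463 CPM in the 10y-noCHF group (median 289) and 210 to 470 CPM in the 10y-MMVD-CHF group (median 318). Its log2 fold change was 0.10 ± 0.11 (interval −0.13 to 0.32), and the highest and lowest dogs of both groups lay close together.

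NOTCH3 had 15.9 to 54.0 CPM without CHF (median 27.4) and 21.1 to 46.0 CPM with CHF (median 32.6). All 15 dogs with CHF lay inside the range of the others, and the log2 fold change was 0.05 ± 0.15 (interval −0.26 to 0.36). NOTCH4, a receptor largely of endothelium, had 1.08 to 23.8 CPM without CHF (median 4.86) and 1.09 to 32.7 CPM with CHF (median 3.82). The fold change of NOTCH4 was the least certain of the 10, with an interval from 0.505-fold to 1.89-fold. Its sign turned from −0.03 to positive when any of 12 single dogs was left out, by most without CAV285 (0.23), and its value was −0.66 without CAV1047.

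Among the ligands, JAG1, the Jagged ligand of endothelium and smooth muscle, had 40.9 to 71.3 CPM without CHF (median 55.3) and 42.6 to 76.8 CPM with CHF (median 55.4). Its medians were nearly equal and its interval was the narrowest of the 10 genes, 0.944-fold to 1.18-fold. JAG2 had 3.51 to 18.8 CPM without CHF (median 7.60) and 2.62 to 22.5 CPM with CHF (median 6.52). With a log2 fold change of −0.22 ± 0.25 (interval −0.73 to 0.29), JAG2 had the largest estimate of the 10 genes over all dogs. It was −0.49 without CAV1047, where that of NOTCH4 was larger, and −0.14 without CAV865.

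DLL1 had 4.06 to 10.9 CPM without CHF (median 8.24) and 3.33 to 13.97 CPM with CHF (median 7.05). Of the dogs with CHF, 10 of 15 were below the 10y-noCHF median, and the log2 fold change was −0.02 ± 0.16 (interval −0.34 to 0.29). DLL4, the Delta-like ligand of arterial and sprouting endothelium, had 1.26 to 11.5 CPM without CHF (median 4.41) and 1.90 to 19.02 CPM with CHF (median 3.52). Its log2 fold change of 0.13 ± 0.30 (interval −0.48 to 0.74) rested on CAV1047, and without this dog it was −0.18.

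Of the target genes, HEY2 had 51.0 to 102 CPM without CHF (median 72.3) and 37.6 to 100 CPM with CHF (median 69.5), with a log2 fold change of −0.07 ± 0.11 (interval −0.30 to 0.15). HEY1 had 0.355 to 2.07 CPM without CHF (median 0.729) and 0.0824 to 1.85 CPM with CHF (median 0.715). The log2 fold change of HEY1 was −0.17 ± 0.29 (interval −0.77 to 0.43), and it was 0.05 on the human HEY1 feature, whose interval contains the canine exons. Among single dogs left out, CAV1047 (−0.42), CAV748 (−0.06), CAV1519 (−0.06) and CAV901 (−0.08) moved the value of HEY1 by over 1.5 times.

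**Figure D2:**
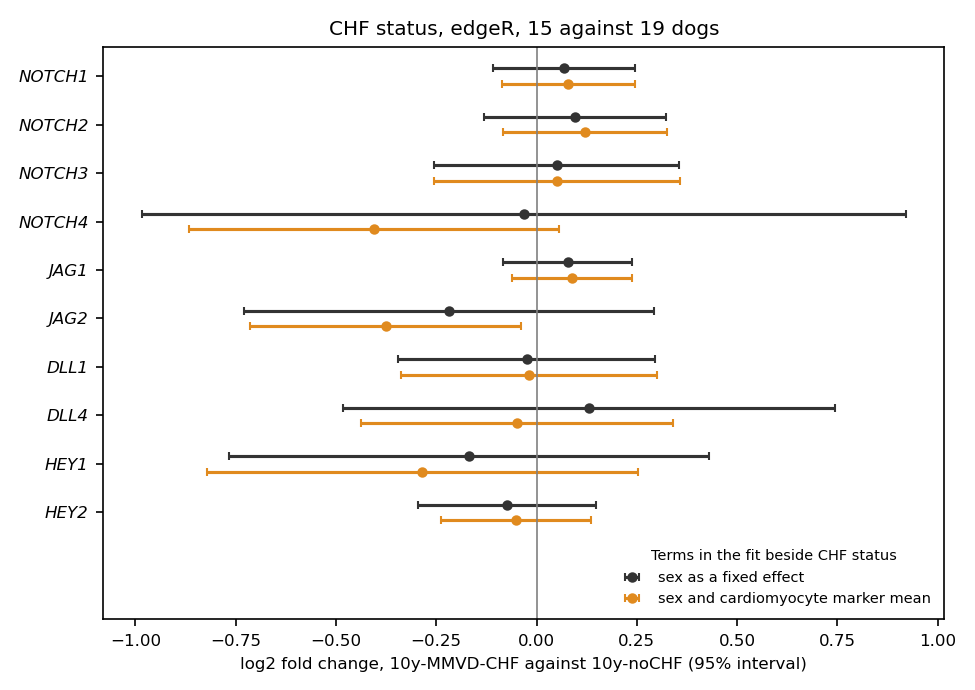
Log2 fold change of 10y-MMVD-CHF (15 dogs) against 10y-noCHF (19 dogs) for each gene, with 95% intervals, from a fit with sex (black) and from a fit with sex and the cardiomyocyte marker mean (orange). All black intervals cross 0, and of the orange ones that of JAG2 (−0.71 to −0.04) does not.

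With the cardiomyocyte marker mean (the mean log2 CPM of the 17 markers) added to the fit, still 0 of 10 genes were called, against 30 of 19568 features. An unadjusted p below 0.05 was reached by 1 of the 10, against 1491 of all features. This was JAG2 (edgeR p = 0.0315, log2 fold change −0.38 ± 0.17, adjusted p = 0.608). In the same fit NOTCH4 had a log2 fold change of −0.41 ± 0.23 (adjusted p = 0.706) and DLL4 of −0.05 ± 0.19. With the mural marker mean in place of the cardiomyocyte mean 0 of 10 genes were called. Calls over all features were not counted in that fit. In it, NOTCH4 (0.05 ± 0.47) and DLL1 (0.03 ± 0.14) had the opposite sign to the fit with sex alone. Without CAV1047 and CAV614 none of the 10 genes was called either, against 20 of 19513 features.

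Of 74 further genes of the pathway, 70 passed the filter of 100 counts in sum, 1 was not listed and 3 were below it, among them DLL3 (44 counts) and HES5 (88 counts). None of the 70 was called with CHF by edgeR, DESeq2 or voom. An unadjusted p below 0.05 was reached by 7 of them, 5 with a positive and 2 with a negative log2 fold change (2.8% and 3.51% of all features), and by 8 under DESeq2 (1377 of 19568 features). Their median log2 fold change was 0.06, against 0.01 over all features. Leaving out 1 dog at a time gave 4 such genes (without CAV1196, 1149 of all features) to 11 (without CAV1939, 1517 of all features).

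The 7 genes lay at several steps of the pathway. LFNG, the Lunatic fringe glycosyltransferase that modifies Notch receptors, had 19.04 ± 4.80 CPM (SD, n = 19) without CHF and 24.1 ± 4.91 CPM (n = 15) with CHF (log2 fold change 0.35 ± 0.11, edgeR p = 0.0035, adjusted p = 0.446). HES1, a Notch target repressor related to the HEY genes, had 13.8 ± 3.29 and 17.5 ± 5.21 CPM (log2 fold change 0.37 ± 0.13, adjusted p = 0.521). CDKN1A, a cell cycle inhibitor, had 92.9 ± 25.04 and 76.8 ± 14.9 CPM (log2 fold change −0.30 ± 0.11, adjusted p = 0.614). SNAI2, a transcription factor of endothelial-to-mesenchymal transition, had a log2 fold change of 0.28 ± 0.12, and EPHB4, a receptor of venous endothelium, one of 0.18 ± 0.08. NEURL1, an E3 ligase that acts on ligands, was low (0.789 and 1.08 CPM) with a log2 fold change of 0.48 ± 0.22, and DTX2, a Deltex E3 ligase, had one of −0.13 ± 0.06. For these 4 genes the adjusted p was 0.732 to 0.779.

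The other genes with the highest level per kilobase in each list had small log2 fold changes. MFAP5 and MFAP2, microfibril proteins listed with the other ligands, had log2 fold changes of −0.18 ± 0.11 and −0.08 ± 0.11. The γ-secretase subunits PSENEN and NCSTN, which take part in the final cut of the receptor, had −0.02 ± 0.07 and 0.02 ± 0.06. The glycosylation enzymes POFUT1 and RFNG had 0.20 ± 0.12 and −0.02 ± 0.07, and the nuclear cofactors CTBP1 and EP300 had 0.00 ± 0.06 and 0.09 ± 0.07. DTX3 and EPN1, of ligand and receptor turnover, had −0.14 ± 0.10 and 0.05 ± 0.06. The arterial genes EFNB2 and CXCR4 had 0.00 ± 0.15 and 0.13 ± 0.18, and the venous regulator NR2F2 had 0.11 ± 0.10. None of these 13 genes had an unadjusted p below 0.05.

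Sex was compared in the same fit. None of the 10 genes was called between males and females, against 0.143% of all features, and none had an unadjusted p below 0.05, against 2.98%. The log2 fold changes (male against female) ranged from −0.57 ± 0.47 for NOTCH4 to 0.25 ± 0.29 for HEY1. DLL4, at −0.51 ± 0.30, had the smallest p of the 10 (p = 0.098, adjusted p = 0.9997), and its estimate was −0.22 without CAV1047.

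Whether CHF status acts differently in the sexes was tested as an interaction. Again 0 of 10 genes were called, as were 0 of all features (0% called, 6.02% with an unadjusted p below 0.05). By edgeR 0 of the 10 genes had an unadjusted p below 0.05 in the interaction. By DESeq2 1 had, against 1281 of 19568 features, and by edgeR without CAV1047 and CAV614 3 had, against 1832 of 19513. The smallest edgeR p of the 10 was that of NOTCH2 (interaction −0.42 ± 0.22, p = 0.0576, adjusted p = 0.83). In females NOTCH2 had 188 to 382 CPM without CHF (median 279, n = 10) and 224 to 470 CPM with CHF (median 366, n = 6), a log2 fold change of 0.33 ± 0.16. In males it had 253 to 463 CPM (median 298, n = 9) and 210 to 431 CPM (median 292, n = 9), a log2 fold change of −0.10 ± 0.15.

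The spread of these genes over dogs was then set against the amount of heart muscle RNA, sex and CHF status being in the same fit. Of the 10 genes, 8 were called with the cardiomyocyte marker mean, 4 upward and 4 downward, against 37.5% of all features (19.1% upward, 18.4% downward). In bulk samples, fewer cells of a type and less RNA per cell cannot be told apart. The marker mean ranged from −0.07 in CAV749 (10y-noCHF) to 10.7 in CAV1047, and was 5.91 ± 3.27 (SD, n = 19) without CHF and 6.24 ± 2.84 (n = 15) with CHF.

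The 4 genes that rose with the marker mean were the same 4 that spread most over dogs. NOTCH4 rose by 0.41 ± 0.04 (SE) on the log2 scale per unit of the marker mean, 1.33-fold (edgeR, n = 34 dogs, adjusted p = 9.43e-11). In CAV749 it had 1.66 CPM and in CAV1047 32.7 CPM. DLL4 rose by 0.23 ± 0.03 per unit (adjusted p = 6.27e-07), with 1.26 and 19.02 CPM in these dogs. JAG2 rose by 0.18 ± 0.03 (adjusted p = 2.32e-06), with 8.27 and 22.5 CPM. HEY1 rose by 0.13 ± 0.04 (adjusted p = 0.018), with 1.11 and 1.85 CPM.

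NOTCH4, DLL4 and JAG2 were also called within each group of dogs. HEY1 was called in neither group alone (adjusted p = 0.257 in 10y-noCHF and 0.109 in 10y-MMVD-CHF), where its slopes were 0.10 and 0.16. All 4 were called whichever single dog was left out.

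The 4 genes that fell with the marker mean did so by much less. HEY2 fell by 0.06 ± 0.02 on the log2 scale per unit (adjusted p = 0.00341), from 75.8 CPM in CAV749 to 37.6 CPM in CAV1047, and NOTCH2 fell by 0.05 ± 0.02 (adjusted p = 0.0279). Both were called within the 10y-noCHF group, and within the 10y-MMVD-CHF group they were not (adjusted p = 0.132 for HEY2 and 0.432 for NOTCH2). NOTCH1 fell by 0.03 ± 0.01 (adjusted p = 0.0752) and JAG1 fell by 0.03 ± 0.01 (adjusted p = 0.0645). The calls of NOTCH1 and JAG1 were lost without the 2 dogs farthest from the median of the marker mean (adjusted p = 0.122 and 0.296), within each group, and with edgeR's filterByExpr in place of the filter on summed counts (adjusted p = 0.153 and 0.139). NOTCH1 lost its call when any of 10 single dogs was left out, and JAG1 when any of 6 was, CAV1047 among them for both. DLL1 (slope −0.02 ± 0.03) and NOTCH3 (0.00 ± 0.02) were not called.

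**Figure D3:**
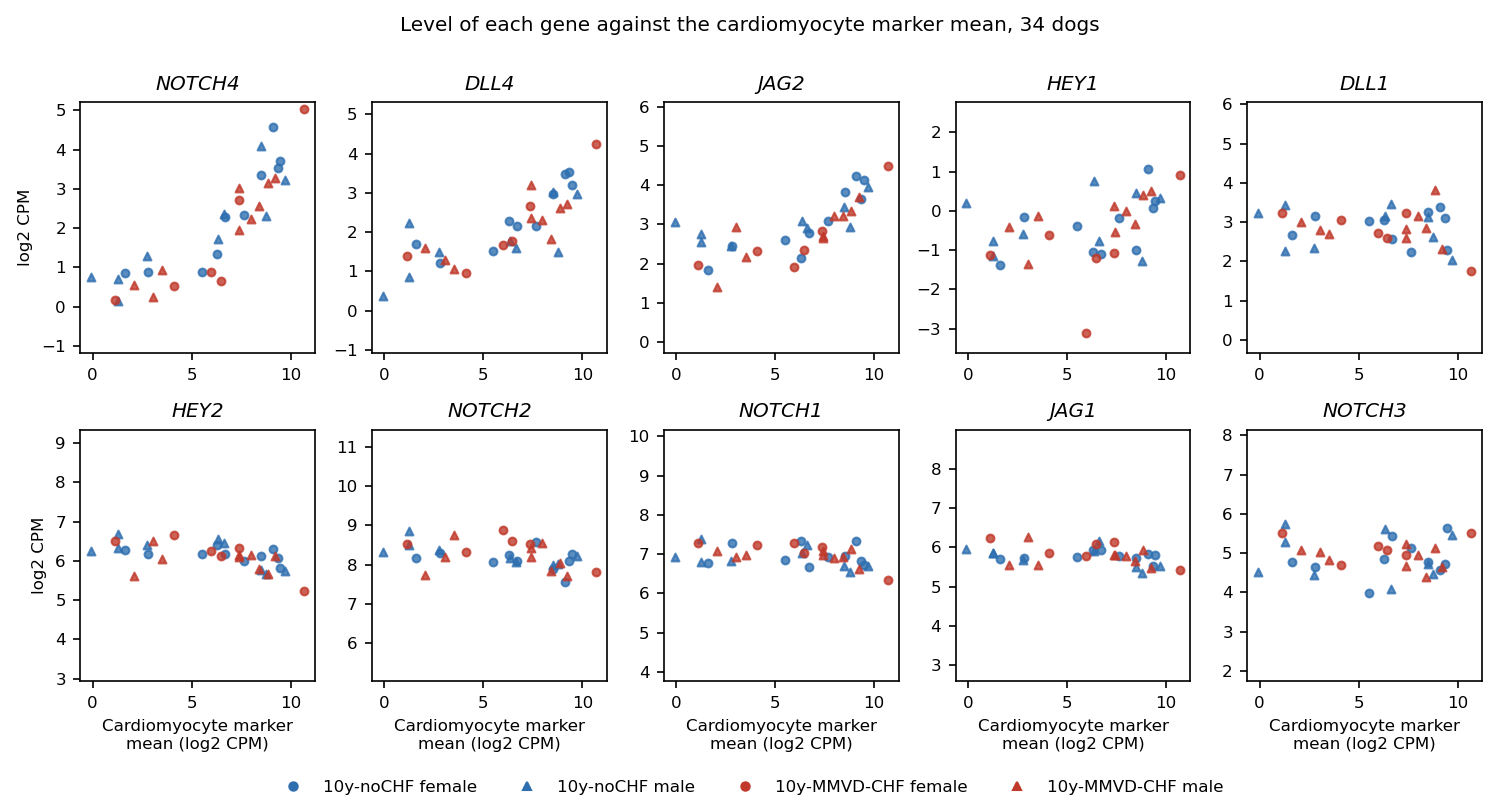
Log2 CPM of each gene (vertical axes span the same number of log2 units) against the mean log2 CPM of 17 cardiomyocyte markers, 1 point per dog, colours and symbols by group and sex. NOTCH4, DLL4 and JAG2 climb toward the right, where CAV1047 lies at 10.7, and HEY2, NOTCH2, NOTCH1 and JAG1 decline slightly.

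The endothelial and mural marker means were compared in the same way. With the endothelial mean (11 markers), 2 of 10 genes were called, against 3.94% of all features, and 5 had an unadjusted p below 0.05, against 20.6%. DLL1 rose by 0.91 ± 0.27 on the log2 scale per unit (edgeR, n = 34 dogs, adjusted p = 0.0648) and DLL4 rose by 1.88 ± 0.54 (adjusted p = 0.0863). NOTCH4 (2.83 ± 0.85, adjusted p = 0.11), JAG2 (1.17 ± 0.47, adjusted p = 0.178) and NOTCH1 (0.40 ± 0.16, adjusted p = 0.167) were past the unadjusted threshold only in this fit. NOTCH4 was called with RLE scaling (adjusted p = 0.0954) and with filterByExpr (adjusted p = 0.0858), and without CAV1047 all 3 of these genes were called (adjusted p = 0.0341, 0.0781 and 0.081). With the cardiomyocyte mean in the same fit, DLL1 and NOTCH1 were called (slopes 1.22 and 0.65, adjusted p = 0.0189 and 0.0227), and DLL4 was not (0.82, adjusted p = 0.599). That fit called 134 of 19568 features.

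The endothelial mean itself varied little, from 4.59 in CAV494 to 5.79 in CAV648, and the calls rested on few dogs. Without the 2 dogs farthest from its median 0 of the 10 genes were called, against 38 of 19517 features. There 4 of the 10 had an unadjusted p below 0.05 (edgeR), against 2753 of all features. Leaving out 1 dog at a time gave between 0 calls (without CAV444, CAV494, CAV748 or CAV1732) and 5 calls (without CAV1047), and 8 further dogs left 1 call each. The calls over all features moved as well. They were 771 with all dogs, 249 to 359 without CAV748, CAV1732, CAV494 or CAV444, and 2282 without CAV1047. Within the 10y-noCHF group 1 of the 10 genes was called, DLL4, against 608 of 19031 features. Within the 10y-MMVD-CHF group 0 were called, as were 0 of all 18656 features. There 1 of the 10 had an unadjusted p below 0.05 (edgeR), against 1203 of all features.

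With the mural mean (9 markers, which do not include NOTCH3), NOTCH3 was the 1 gene called of 10, against 2.01% of all features, and it and DLL1 had an unadjusted p below 0.05, against 15.1%. NOTCH3 rose by 1.07 ± 0.16 on the log2 scale per unit (adjusted p = 0.00116), 2.10-fold. It had 54.0 CPM in CAV1049, the dog with the highest mural mean (6.18), and the call held whichever of the 34 dogs was left out. Within the 10y-noCHF group NOTCH3 was called too, together with DLL1, which fell by 0.95 per unit there (adjusted p = 0.095). That fit called 231 of 19031 features. Within the 10y-MMVD-CHF group the slope of NOTCH3 was 0.81. There 0 of the 10 genes were called, as were 0 of all 18656 features tested. An unadjusted p below 0.05 was reached by 1 of the 10 (edgeR), against 900 of all features. Over all dogs DLL1 had a slope of −0.64 ± 0.24 on the mural mean (adjusted p = 0.194). The 9 markers did not all move together with CHF status. RGS5 had a log2 fold change of 0.58 (edgeR p = 0.0076, adjusted p = 0.556) and MYH11 one of −0.67 (edgeR p = 0.0051, adjusted p = 0.48).

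**Figure D4:**
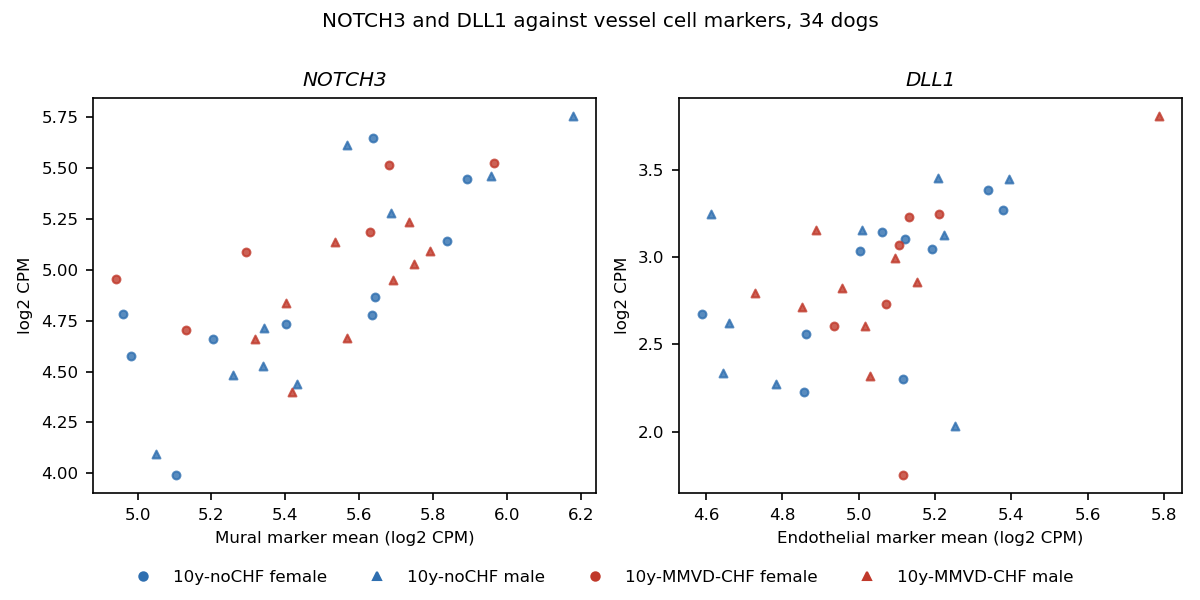
Log2 CPM of NOTCH3 against the mean log2 CPM of 9 mural markers (left) and of DLL1 against that of 11 endothelial markers (right), 1 point per dog, colours and symbols by group and sex. NOTCH3 climbs across the range with dogs of both groups intermixed, and in the DLL1 panel CAV648 stands alone at an endothelial mean of 5.79.

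The 10 genes form 45 pairs, whose correlation across the 34 dogs was computed on log2 CPM. Before every correlation here and below, the mean of each group of CHF status and sex was removed. Of these pairs 14 were called, 11 positive and 3 negative. The test was a two-sided permutation of Spearman's rho within these groups (100000 resamples, adjusted p below 0.1 over the 45). The weakest rho among them was 0.45 in size, which 10.7% of all pairs of tested features reach. All dogs enter each pair, so depth and tissue makeup are shared by both genes.

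The 11 positive pairs joined the genes into 2 sets of 4. NOTCH4, DLL4, JAG2 and HEY1, which all rose with the cardiomyocyte mean, were positively correlated in all 6 of their pairs. NOTCH4 and DLL4 had the highest rho, 0.84 (Pearson's r 0.87, both adjusted p = 0.000225, from the smallest p the permutations can give; r without the 2 farthest dogs 0.82), with 0.76 in 10y-noCHF and 0.90 in 10y-MMVD-CHF. NOTCH4 and JAG2 had a rho of 0.80 (r 0.85, without the 2 farthest dogs 0.82), and JAG2 and DLL4 one of 0.72 (r 0.74, then 0.69). The pairs of HEY1 with these genes had a rho of 0.45 to 0.60.

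The other set joined NOTCH1, DLL1, JAG1 and HEY2, in 5 of their 6 pairs. NOTCH1 and DLL1 had a rho of 0.72 (r 0.72, both adjusted p = 0.0003; r without the 2 farthest dogs 0.63), with 0.68 in 10y-noCHF and 0.58 in 10y-MMVD-CHF. JAG1 and HEY2 had a rho of 0.57 (adjusted p = 0.0102; r 0.67, then 0.52), and NOTCH1 and JAG1 one of 0.52 (adjusted p = 0.0102; r 0.56, then 0.46). NOTCH1 and HEY2 had a rho of 0.54 over all dogs (adjusted p = 0.0102; r 0.64, then 0.45), 0.73 in 10y-noCHF and 0.15 in 10y-MMVD-CHF. The difference between the groups in this pair was not tested. JAG1 and DLL1 had a rho of 0.45 (adjusted p = 0.0423; r 0.46, then 0.42). The negative pairs were NOTCH4 with HEY2 (−0.48), NOTCH4 with NOTCH2 (−0.47) and JAG2 with NOTCH2 (−0.46), and in the last r was −0.44, or −0.23 without the 2 farthest dogs.

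With the cardiomyocyte mean removed from each gene by regression, 11 pairs were called, 10 positive and 1 negative, and the weakest rho among them was 0.39 in size (11.6% of all pairs of features). NOTCH4 and DLL4 kept a rho of 0.65 (adjusted p = 0.00832), while JAG2 and DLL4 had 0.34 and DLL4 and HEY1 had 0.24 and were not called. NOTCH1 and DLL1 had 0.71 (adjusted p = 0.0018). NOTCH2 and NOTCH3, at 0.34 before, had 0.39 (adjusted p = 0.0853).

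**Figure D5:**
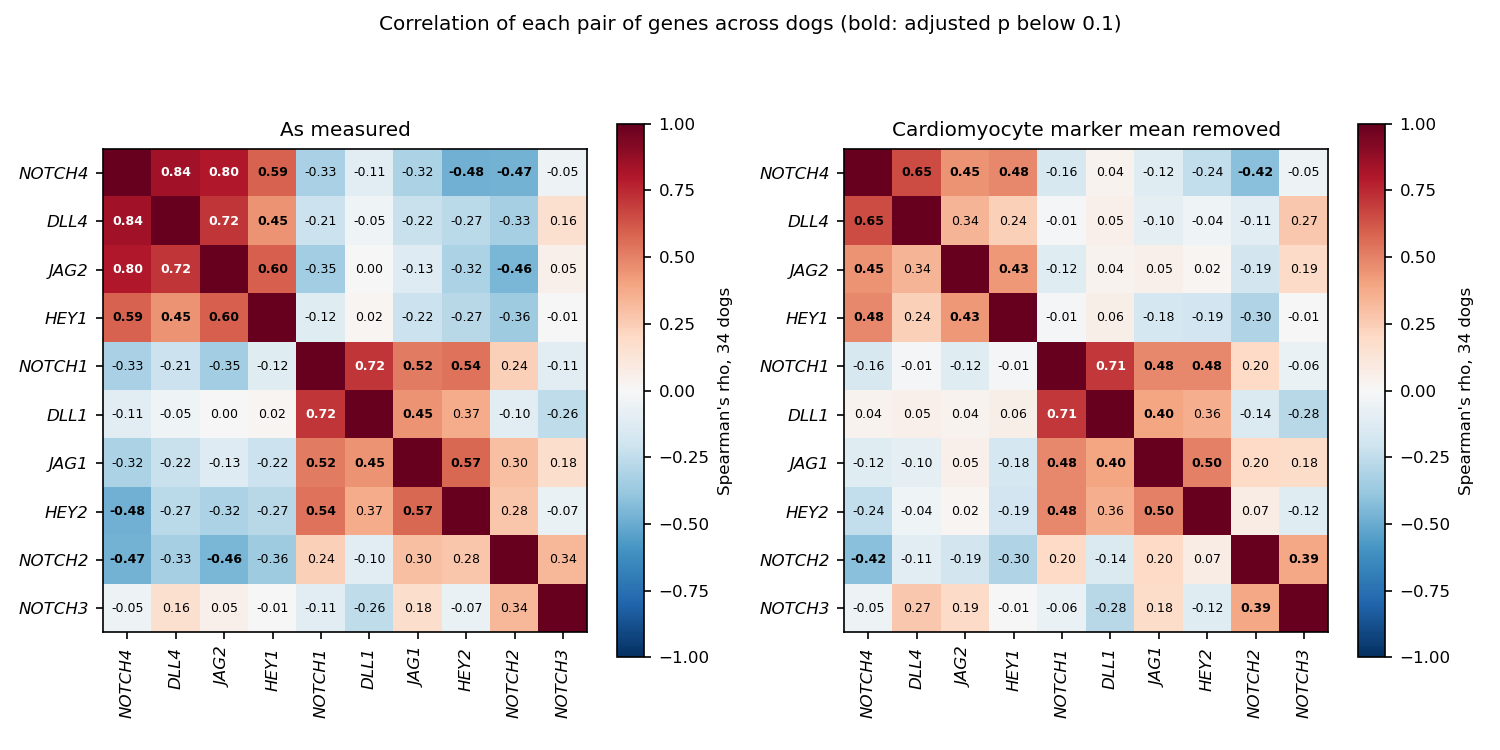
Spearman's rho of each pair of the 10 genes across 34 dogs, red for positive, blue for negative, bold where the adjusted p is below 0.1. The left panel, titled as measured, has the mean of each group of CHF status and sex removed. The right panel has the cardiomyocyte marker mean removed as well. The upper left block (NOTCH4, DLL4, JAG2, HEY1) has values of 0.45 to 0.84 on the left and 0.24 to 0.65 on the right, and NOTCH1 with DLL1 has 0.72 and 0.71.

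For each gene, the 3 features with the highest rho to it over the 34 dogs were listed. They were sought among the 19568 tested, with the group means removed as for the pairs. Features that overlap the gene's interval or share its symbol were left out, such as WIZ for NOTCH3 and AKT1 for JAG2. Only 1 feature was kept per symbol. Likeness in this sense is a description, given without a test. DLL1 was nearest to ECSCR (0.87), RASIP1 (0.86) and TIE1 (0.83), all genes of endothelial cells, and TIE1 was also one of the 11 endothelial markers. The same 3 were nearest with the cardiomyocyte mean removed (0.82 to 0.89).

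NOTCH1 was nearest to ITGB4 (0.89), a laminin-binding integrin, MAP3K9 (0.87) and MET (0.84), the hepatocyte growth factor receptor. With the cardiomyocyte mean removed, SELP (0.82), the P-selectin of endothelium and platelets, stood in the place of MAP3K9. HEY2 was nearest to NFATC1 (0.76), a transcription factor of valve endothelium, PIEZO1 (0.73), a channel opened by membrane stretch and flow, and DNMBP (0.71). JAG1 was nearest to ARHGAP23 (0.68), TAL1 (0.68) and, as HEY2, NFATC1 (0.67).

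NOTCH3 was nearest to ARHGEF17 (0.80), ACTA2 (0.75), the smooth muscle actin, and NEURL1B (0.71), an E3 ligase of the pathway. ARHGEF17 and ACTA2 remained among its 3 nearest with the cardiomyocyte mean removed (both 0.81). NOTCH2 was nearest to FAM168A (0.93), RECK (0.91) and XYLT1 (0.89). With the cardiomyocyte mean removed it was nearest to PCDHGA1, PCDHGA3 and PCDHGA6 (all 0.91), protocadherins that share exons and therefore reads.

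NOTCH4 was nearest to FSD2 (0.97), MBOAT2 (0.96) and CXADR (0.96), and with the cardiomyocyte mean removed to CACNB2 (0.85), a calcium channel subunit, COL24A1 (0.85) and CTNNA2 (0.81). JAG2 was nearest to DOK6 (0.93), DCAF6 (0.92) and DLST (0.91), the last an enzyme of the citric acid cycle, and DLL4 to ANO2 (0.91), ASB16 (0.89) and CDIP1 (0.89). HEY1 was nearest to CC2D2B (0.74), SLC22A23 (0.73) and AMD1 (0.73), and to none of these with the cardiomyocyte mean removed, when FNTB, CPA4 and ECSIT had 0.68 to 0.70.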

How the data were processed

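Read pairs were aligned by the authors with STAR to canFam4. They were then counted with featureCounts 2.0.3 on canine RefSeq and human XenoRefSeq features, and the deposited values are these counts, not normalized. The recorded command counts both reads of a pair, uses no strand and assigns a read to every overlapping feature. The length column gave the kilobases of counted interval, which hold introns for human features. The canine feature was used where both existed (HEY1). In the table, 1 column belongs to no sample analysed here and was left out.

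The 19568 features whose counts over all dogs summed to 100 or more were tested with edgeR 4.0.16 (quasi-likelihood, TMM, sex and CHF status, R 4.3.3). Each marker mean was added to this fit as 1 further term. SEs are from the fitted model. CPM were TMM-scaled, and log2 CPM used a prior count of 2. DESeq2 1.42.0, limma 3.58.1 voom, RLE and upper-quartile scaling, other filters and leaving out each dog were alternatives. Permutations used numpy 2.4.6 and scipy 1.17.1. The p-values cover the spread between dogs.

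On simulated counts with 200 changed features of 19568, edgeR recovered 79.5% of CHF changes of 1 (7.02% of calls false), 86.5% of cardiomyocyte slopes of 0.3 (6.49% false) and 76.5% of interactions of 2 (6.71% false), all on the log2 scale.

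The members, pathway lists and marker lists (cardiomyocyte, endothelial, mural, valve interstitial, macrophage, lymphocyte, red blood cell, mesothelial, adipocyte and Schwann cell) were chosen with earlier results of these data known. Pathway genes named are those with p below 0.05 in CHF and the 2 of each list with the highest level per kilobase.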

Additional observations from a re-analysis of the deposited data

Results flagged for a closer look

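For each gene, the highest and lowest dog was compared with the next one in each group of 1 CHF status and 1 sex (6 to 10 dogs). Of these 40 tests (Dixon's test), about 2 would be past the threshold by chance, and 3 were past it. NOTCH1 in CAV1047 was the lowest of the 6 10y-MMVD-CHF females (81.4 CPM, next 131), with a gap of 0.731 of the group's range. JAG2 in the same dog was the highest of these 6 (22.5 CPM, next 7.06), with a gap of 0.648. CAV1047 also had the highest cardiomyocyte marker mean (10.7), and its part in both values was not tested. NOTCH1 in CAV373 was the lowest of the 9 10y-MMVD-CHF males (97.7 CPM, next 120.4), with a gap of 0.581 of the range. CAV373 had a cardiomyocyte marker mean of 9.23, and its part was not tested either.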

How the results depend on the processing

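No count of members called changed for CHF status, sex or their interaction, under any alternative or with any single dog left out, and the same held for the pathway genes with CHF. With the cardiomyocyte mean the count of 8 became 6 with filterByExpr and without the 2 farthest dogs, 7 without CAV1047 and CAV614, 5 within 10y-noCHF and 3 within 10y-MMVD-CHF, and with single dogs left out it ran from 6 to 8. Over all features these fits called 7342 of 19568 (main), 6866 of 18584, 6955 of 19513, 5952 of 19513, 4127 of 19031 and 4815 of 18656, in the same order. With single dogs left out the calls over all features ran from 5934 to 7713. With the endothelial mean the count of 2 became 3 with RLE scaling and with filterByExpr, 5 without CAV1047 and CAV614, 0 without the 2 farthest dogs, 1 within 10y-noCHF and 0 within 10y-MMVD-CHF, and with single dogs left out it ran from 0 to 5. Over all features these fits called 771 of 19568 (main), 895 of 19568, 1107 of 18584, 2679 of 19513, 38 of 19517, 608 of 19031 and 0 of 18656, in the same order. With single dogs left out the calls over all features ran from 249 to 2282. With the mural mean the count of 1 became 2 within 10y-noCHF and 0 within 10y-MMVD-CHF. Over all features the calls were 394 of 19568 in the main fit, 231 of 19031 within 10y-noCHF and 0 of 18656 within 10y-MMVD-CHF. The cause was not tested. Over all features, DESeq2 called 64 with CHF (edgeR 23, or 13 without a sex term) and 3 in the interaction (edgeR 0). The count of 14 correlated pairs ran from 11 (cardiomyocyte mean removed) to 21 (endothelial mean removed). In the order of levels, 7 or 8 of 9 neighbouring pairs were separated, but the order itself changed with the measure. By CPM not divided by length, NOTCH2 was above NOTCH1 and NOTCH1 above HEY2, each in 34 of 34 dogs. DLL4 was then above HEY1 in 34 of 34 dogs.

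Some signs turned, in values that were not called. With CHF status, NOTCH3 had −0.0015 (log2) without CAV1047 and CAV614, where DLL1 had 0.037, DLL4 −0.16 and HEY2 0.010. DLL1 had 0.031 by voom, DLL4 −0.049 with the cardiomyocyte mean and HEY1 0.046 on its human feature. With the mural mean in the fit NOTCH4 had 0.052 and DLL1 0.027. With single dogs left out, NOTCH4 ran from −0.66 to 0.23, DLL1 from −0.11 to 0.043, and DLL4 from −0.18 to 0.24. Uncalled values of the other members kept their sign with single dogs left out, and ran from 0.05 to 0.12 for NOTCH1, 0.04 to 0.15 for NOTCH2, 0.0063 to 0.12 for NOTCH3, 0.04 to 0.11 for JAG1, −0.49 to −0.14 for JAG2, −0.42 to −0.06 for HEY1 and −0.12 to −0.02 for HEY2. The slope of NOTCH3 on the cardiomyocyte mean (−0.0042) was 0.0026 without the 2 farthest dogs and 0.012 within 10y-noCHF, and ran from −0.014 to 0.013 with single dogs left out.

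No paired analysis was possible because each dog has its own number and belongs to 1 group. The fits without CAV1047 and CAV614, without the 2 farthest dogs, within groups and with the mural mean beside CHF status were chosen after seeing the data. HEY1, at 6 to 161 counts per dog, limits what could be seen of it. ACVIM stage, age and weight are not paired with the dogs here.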
